A study of Mus musculus with 4 samples.

Results

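Osteopontin, the product of *Spp1*, and 7 genes for its receptors were examined in cultured mouse fat cells that had lost their adipocyte form and in cultured stromal cells of the same fat depots. The 8 genes were taken by symbol from the 32285 genes counted. They are *Spp1*, *Cd44*, the integrin alpha chains *Itgav*, *Itga4* and *Itga9*, and the integrin beta chains *Itgb1*, *Itgb3* and *Itgb5*. *Spp1* was selected on its level in these same libraries, where it marks a group of cells, and the receptors were chosen by their known binding of osteopontin, so all levels are given as a description. The RNA of single cells had been sequenced by the 10x Genomics 3′ method in 4 libraries from C57BL/6J male mice fed a chow diet. De-differentiated fat (DFAT) cells make up the iWAT_DFAT and eWAT_DFAT libraries and were obtained by ceiling culture of adipocytes from the inguinal (iWAT) and the epididymal (eWAT) white adipose tissue. Cultured stromal vascular fraction (SVF) cells of the same depots make up iWAT_SVF and eWAT_SVF, which the study treats as adipose stem and progenitor cells. All cells were detached from plastic, stained with 7-AAD and sorted, and the number of mice behind each library is not given in the sources used here. There was 1 library per condition, so no condition had a replicate, no test across samples was made, and culture cannot be told apart from library.

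Osteopontin is a secreted, phosphorylated glycoprotein of bone and of inflamed or injured tissue, and in obese adipose tissue it is known chiefly as a macrophage product. It carries an RGD motif that binds integrins with an alpha v chain, and thrombin cleavage exposes a further motif that binds the alpha 9 and alpha 4 integrins. CD44, a hyaluronan receptor, is also bound by osteopontin, and integrins work as pairs of 1 alpha and 1 beta chain.

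Barcodes with 5000 to 75000 UMIs (molecular tags, of which each marks an RNA molecule caught in the droplet), 200 to 7500 genes and under 10% mitochondrial UMIs were taken as cells. They numbered 7629 in iWAT_DFAT, 6464 in eWAT_DFAT, 7424 in iWAT_SVF and 6745 in eWAT_SVF, with a median of 22111 to 27617 UMIs per cell. Values of the 4 libraries below are in this order. Levels are counts per 1000000 UMIs (CPM) summed over the cells of a library, with exact 95% intervals. The intervals cover counting error only and not differences between cells or between cultures. All 10 stromal markers had UMIs in every library, and their summed level was 7447 to 16268 CPM. The adipocyte markers summed to 357, 2223, 82.3 and 335 CPM, with *Lep* at 0 UMIs in all 4 libraries. Any pair of libraries shared 13 to 20 cell barcodes.

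The upstream sequence of *Spp1* is shown because, its level, among those of the 8 genes at 5 CPM or more, differed most between the cultures. The 250 bases before the RefSeq start of the gene, which lies 7 bases before the GENCODE start, are on the plus strand of GRCm38.p6 at chr5:104434861-104435110. Capitals mark a RUNX core (AACCACA) and a TATAAA match.
Spp1 upstream: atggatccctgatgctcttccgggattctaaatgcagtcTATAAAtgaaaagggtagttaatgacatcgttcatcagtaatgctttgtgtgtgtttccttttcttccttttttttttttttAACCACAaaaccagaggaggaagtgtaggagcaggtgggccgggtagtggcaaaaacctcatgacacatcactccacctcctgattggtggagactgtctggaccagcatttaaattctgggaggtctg
The RUNX core lay at positions -129 to -123 before the start, and 4.39% of 32817 upstream windows of the same length held it on either strand. TATAAA lay at -211 to -206 and occurred in 12.4% of the windows. An E-box (CANNTG) was present at -98 to -93, as in 66.2% of the windows. The AP-1 letters TGANTCA, held by 6.75% of windows, and the NF-κB letters GGGNNTTCC, held by 4.97%, had no match in these 250 bases on either strand. These are matches of letters and not measured binding sites.

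*Spp1* (ENSMUSG00000029304, chromosome 5, 104435118 to 104441050, GRCm38) was high in both DFAT libraries and low in both SVF libraries. Its level was 1950 CPM in iWAT_DFAT (95% interval 1944 to 1957), 4251 in eWAT_DFAT (4241 to 4260), 182 in iWAT_SVF (180 to 184) and 53.0 in eWAT_SVF (52.0 to 54.0). The 4 libraries thus stood in the order eWAT_DFAT, iWAT_DFAT, iWAT_SVF, eWAT_SVF with no overlap of the counting intervals. DFAT cells exceeded SVF cells by 10.7-fold in iWAT, a log2 ratio of 3.42 (3.41 to 3.44), and by 80.3-fold in eWAT, a log2 ratio of 6.33 (6.30 to 6.35). In iWAT 136 of 10426 genes, and in eWAT 22 of 10298 genes, had a higher ratio of DFAT over SVF cells, among genes at 5 CPM or more in the higher library. The depot difference ran in opposite directions in the 2 cultures: *Spp1* was lower in iWAT than in eWAT DFAT cells, with a log2 ratio of -1.12 (-1.13 to -1.12), and higher in iWAT than in eWAT SVF cells, with a log2 ratio of 1.78 (1.75 to 1.81). Both ratios that involve eWAT_SVF rest on its low level of 53.0 CPM. Of the *Spp1* UMIs there, 48.5% were held by 36 cells with over 25 per 10000 UMIs.

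**Figure D1:**
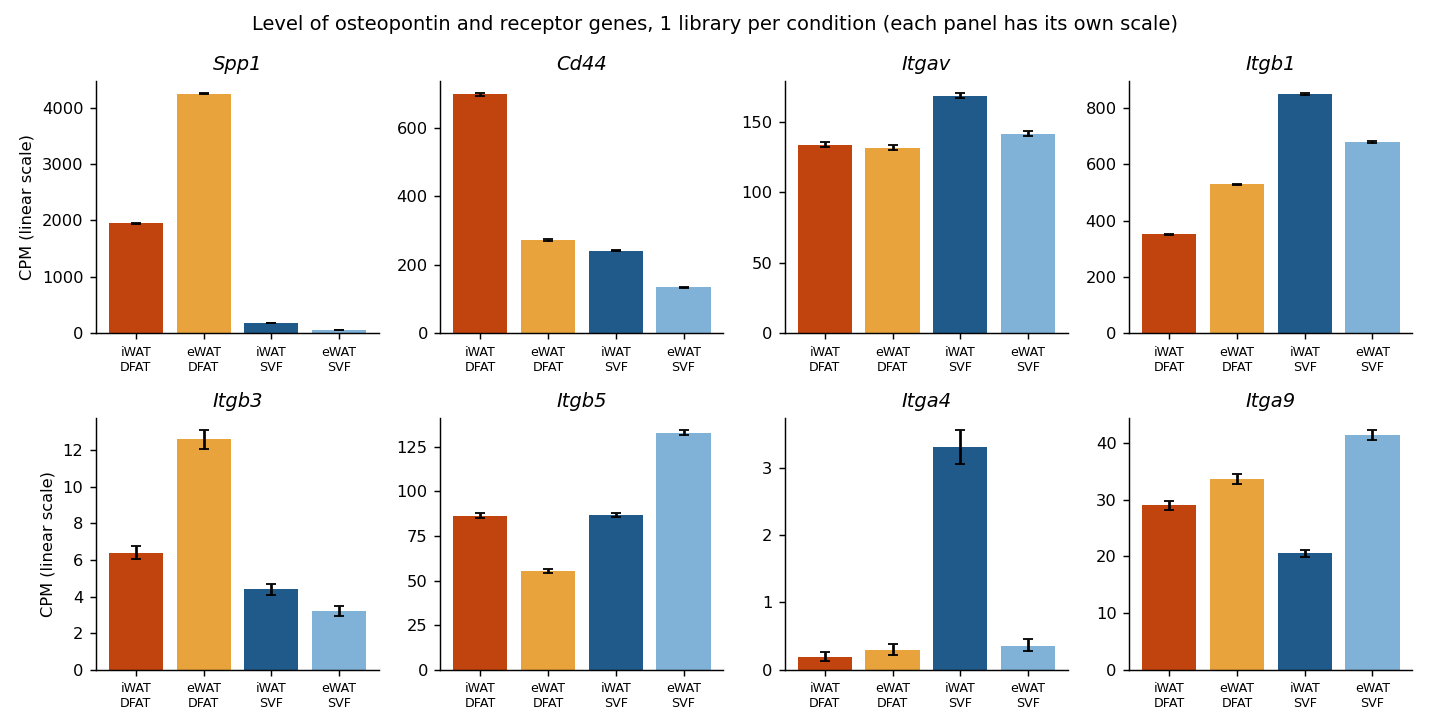
Level of each of the 8 genes in the 4 libraries, as CPM on a linear axis from 0 with a separate scale per panel. Bars are single libraries and error bars exact 95% Poisson intervals. Spp1 stood at 1950 and 4251 CPM in the DFAT libraries against 182 and 53.0 in the SVF libraries, while Cd44 was highest in iWAT_DFAT.

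Macrophages are a well-known source of osteopontin, so the cells with UMIs of 3 or more immune markers were counted separately. There were 1, 4, 9 and 32 of them. In eWAT_SVF these 32 cells had 2578 CPM of *Spp1* and held 21.1% of the library's *Spp1* UMIs. The immune list summed to 20.5, 17.9, 21.2 and 62.7 CPM. The other cell types are immune, endothelial, mesothelial, glial, pericyte and adipocyte. Wherever cells of other types are left out, adipocyte-marker cells are thus left out too, also in the DFAT libraries. Cells with under 3 markers of every other cell type had 1955, 4209, 178 and 42.6 CPM of *Spp1*. Without the cells of other types the eWAT ratio of DFAT over SVF cells was 6.63 on the log2 scale. In eWAT_DFAT the 473 cells with 3 or more adipocyte markers reached 6104 CPM of *Spp1* and held 11.1% of its UMIs. In iWAT_DFAT the corresponding 295 cells, at 1985 CPM, differed little from the other cells. The part of adipocyte gene expression in the *Spp1* level was not tested.

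*Spp1* was spread unevenly over cells, and more unevenly in the SVF libraries. At full depth 91.7%, 96.5%, 53.3% and 15.5% of cells held at least 1 *Spp1* UMI. After thinning, the random draw of 5000 UMIs from every cell that makes depths equal, the shares were 78.4%, 86.4%, 28.5% and 7.01%. Cells with 3 or more endothelial markers, taken as the reference for background, gave thinned shares of 36.4%, 48.7%, 3.45% and 7.74% among 22, 158, 58 and 168 cells, whose median depth was 12329 to 18699 UMIs. The share in eWAT_SVF was therefore no higher than in its endothelial-marker cells and is not read as expression across its cells, whereas the other 3 libraries were above theirs. This reading depends on the reference chosen. In eWAT_SVF the thinned share was 2.94% among 578 mesothelial-marker cells and 16.7% among 36 pericyte-marker cells. In iWAT_DFAT it was 77.8% among the 18 glial-marker cells and also among the 18 pericyte-marker cells, near that of the library. A share of cells cannot decide whether a small part of the cells expressed the gene. The reference is not free of high cells either, since 17 of the 158 in eWAT_DFAT held over 25 *Spp1* UMIs per 10000. Free RNA, measured in droplets of 1 to 100 UMIs, held *Spp1* at 2550, 4679, 192 and 55.2 CPM, close to the level in the cells of the same library.

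The median cell held 8.99 *Spp1* UMIs per 10000 UMIs in iWAT_DFAT, 22.0 in eWAT_DFAT, 0.277 in iWAT_SVF and 0 in eWAT_SVF. The cell at the 90th percentile held 45.6, 104, 4.51 and 0.459. Single cells with the most *Spp1* reached 324, 689, 128 and 294, so the maximum in eWAT_SVF lay near that of iWAT_DFAT although the medians did not. On thinned counts the coefficient of variation was 1.39, 1.28, 3.17 and 9.54. The variance over cells was 17.2, 32.9, 9.20 and 27.5 times the mean, and 5, 6, 23 and 8 of the 9750 to 10013 genes at 5 CPM or more had a higher ratio of variance to mean. That ratio tends to rise with the level of a gene. By variance minus mean, divided by the squared mean, 952, 1205, 161 and 8 of these genes were higher than *Spp1*. The tenth of cells with most *Spp1* held 42.7% of its UMIs in iWAT_DFAT, 39.5% in eWAT_DFAT and 73.7% in iWAT_SVF.

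**Figure D2:**
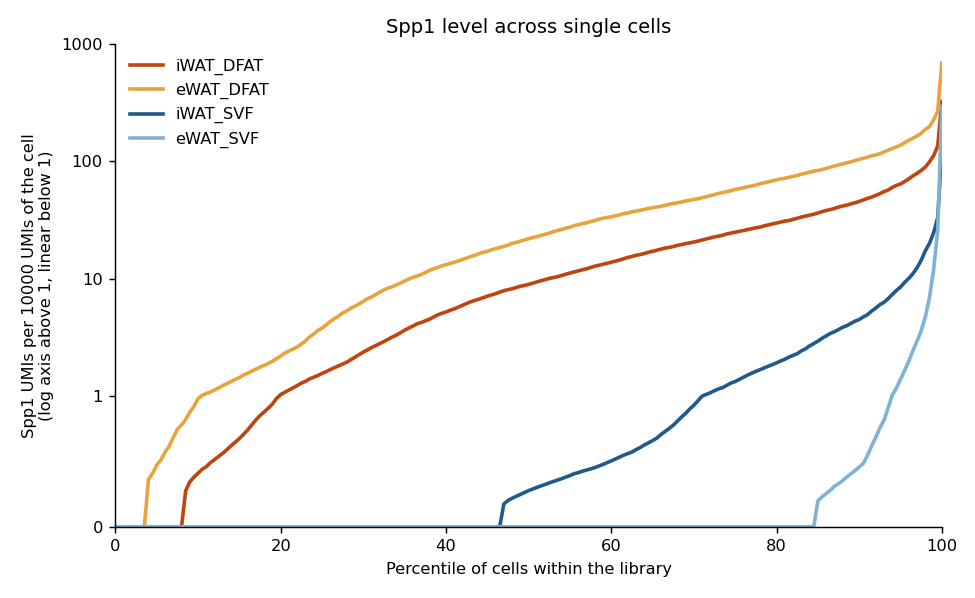
Spp1 UMIs per 10000 UMIs of the cell against the percentile of cells within each library. The axis is logarithmic above 1 and linear below it. The eWAT_DFAT curve lies above iWAT_DFAT through most of its range, and the SVF curves leave 0 only after 46.7% and 84.5% of cells.

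Cells above 25 *Spp1* UMIs per 10000 made up 25.1% of iWAT_DFAT, 47.2% of eWAT_DFAT, 0.997% of iWAT_SVF and 0.534% of eWAT_SVF. They held 72.1%, 90.6%, 19.2% and 48.5% of the *Spp1* UMIs. In eWAT_SVF they were 36 cells, of which 18 carried 3 or more immune markers and 16 fewer than 3 markers of any other type. Immune markers were carried by 2 of 74 such cells in iWAT_SVF, 2 of 3051 in eWAT_DFAT and 0 of 1912 in iWAT_DFAT. Immune-marker cells were thus a large part of the high-*Spp1* cells in eWAT_SVF and not in the DFAT libraries.

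*Cd44* (ENSMUSG00000005087, chromosome 2, 102811141 to 102901665) was higher in DFAT than in SVF cells of both depots. Its level was 697, 272, 241 and 134 CPM. The log2 ratio of DFAT over SVF cells was 1.54 (1.52 to 1.55) in iWAT and 1.02 (0.998 to 1.04) in eWAT. The eWAT ratio was 0.95 when centred on the median of all genes and 0.99 with free RNA subtracted, both under 2-fold. Unlike *Spp1*, *Cd44* was higher in iWAT than in eWAT in both cultures, with log2 ratios of 1.36 (1.35 to 1.38) in DFAT cells and 0.85 (0.82 to 0.87) in SVF cells. The library with most *Spp1*, eWAT_DFAT, was therefore not the library with most *Cd44*. A *Cd44* UMI was found in 84.4%, 62.0%, 58.1% and 41.2% of thinned cells, beside 40.9%, 36.7%, 15.5% and 22.0% of the endothelial-marker cells. Cells with UMIs of both *Spp1* and *Cd44* made up 65.9%, 53.6%, 17.7% and 3.41%, beside 66.1%, 53.6%, 16.6% and 2.89% from multiplying the single shares.

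*Itgb1* (chromosome 8, 128685654 to 128733200), the beta chain shared by most matrix-binding integrins, was lower in DFAT than in SVF cells. It stood at 351, 529, 850 and 680 CPM. The log2 ratio of DFAT over SVF cells was -1.27 (-1.29 to -1.26) in iWAT and -0.36 (-0.37 to -0.35) in eWAT. *Itgav* (chromosome 2, 83724397 to 83806916), the alpha v chain, varied least, at 134, 132, 169 and 142 CPM. Its 2 DFAT libraries had overlapping counting intervals, with a log2 ratio of 0.024 (-0.0018 to 0.049) between depots.

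The beta chains that pair with alpha v differed in direction in eWAT. *Itgb3* (chromosome 11, 104608000 to 104670476), the partner in the classical osteopontin receptor of osteoclasts, was at 6.39, 12.6, 4.39 and 3.21 CPM, and its ratio of DFAT over SVF cells was 0.54 (0.41 to 0.67) in iWAT and 1.97 (1.85 to 2.10) in eWAT on the log2 scale. *Itgb5* (chromosome 16, 33829665 to 33949338) was at 86.5, 55.2, 86.8 and 133 CPM, with ratios of -0.0052 (-0.036 to 0.026) in iWAT and -1.27 (-1.30 to -1.24) in eWAT. In eWAT, DFAT cells thus had more *Itgb3* and less *Itgb5* than SVF cells, while in iWAT the *Itgb5* intervals overlapped. *Itgb3* was carried in part by endothelial-marker cells, which had 100.1, 86.4, 34.5 and 37.9 CPM and held 4.34%, 10.0%, 4.45% and 21.9% of its UMIs. Adipocyte-marker cells held 4.34%, 12.1%, 0.114% and 0.315% of them, at 6.26, 19.7, 4.11 and 3.54 CPM. Mesothelial-marker cells of eWAT_SVF held 9.15%, at 3.68 CPM. The adipocyte-marker cells of iWAT_DFAT and the mesothelial-marker cells of eWAT_SVF were thus near the level of their library. Cells with under 3 markers of every other type had 6.16, 10.9, 4.16 and 2.44 CPM, and without cells of other types the eWAT ratio was 2.16 on the log2 scale.

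*Itga9* (chromosome 9, 118606690 to 118901003), whose product binds the thrombin-cleaved form, was at 29.0, 33.6, 20.6 and 41.5 CPM. It was higher in DFAT than in SVF cells of iWAT, with a log2 ratio of 0.50 (0.44 to 0.55), and lower in eWAT, with a log2 ratio of -0.30 (-0.35 to -0.25). *Itga4* (chromosome 2, 79255426 to 79333123), which pairs with *Itgb1* on leukocytes, was low, with 35, 55, 658 and 71 UMIs in all, or 0.191, 0.296, 3.30 and 0.359 CPM. It was under 5 CPM everywhere and is left out of the counts of genes past 2-fold. Immune-marker cells of eWAT_SVF had 31.6 CPM and held 38.0% of its UMIs there, and the 140 glial-marker cells of iWAT_SVF had 32.1 CPM and held 10.2%. In iWAT_SVF, the library with most *Itga4* UMIs, 83.4% of them were in cells with under 3 markers of every other type. Endothelial-marker cells held 23.9% in eWAT_SVF, and pericyte-marker cells 36.4% in eWAT_DFAT.

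Among the 6 receptor genes at 5 CPM or more, 1 was over 2-fold higher and 1 over 2-fold lower in DFAT than in SVF cells of iWAT, where 9.91% of all 10426 genes tested were higher and 5.18% lower by that much, 15.1% in either direction. In eWAT 2 of 6 were higher, of which *Cd44* lay at the limit, and 1 lower, beside 6.44% and 6.67% of 10298 genes, 13.1% in either direction. Between the DFAT libraries 1 of 6 was over 2-fold higher in iWAT and 0 lower, beside 8.29% and 3.95% of 10384 genes, 12.2% in either direction. *Itgb3* lay at the limit there, with a log2 ratio of -0.98 (-1.08 to -0.88). Between the SVF libraries 0 of 5 were higher and 1 lower, beside 2.94% and 3.94% of 10135 genes, 6.88% in either direction. The lower gene, *Itga9*, also lay at the limit, with a log2 ratio of -1.01 (-1.06 to -0.96). The median log2 ratio of all genes tested was between 0.053 and 0.091 in the 4 comparisons.

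**Figure D3:**
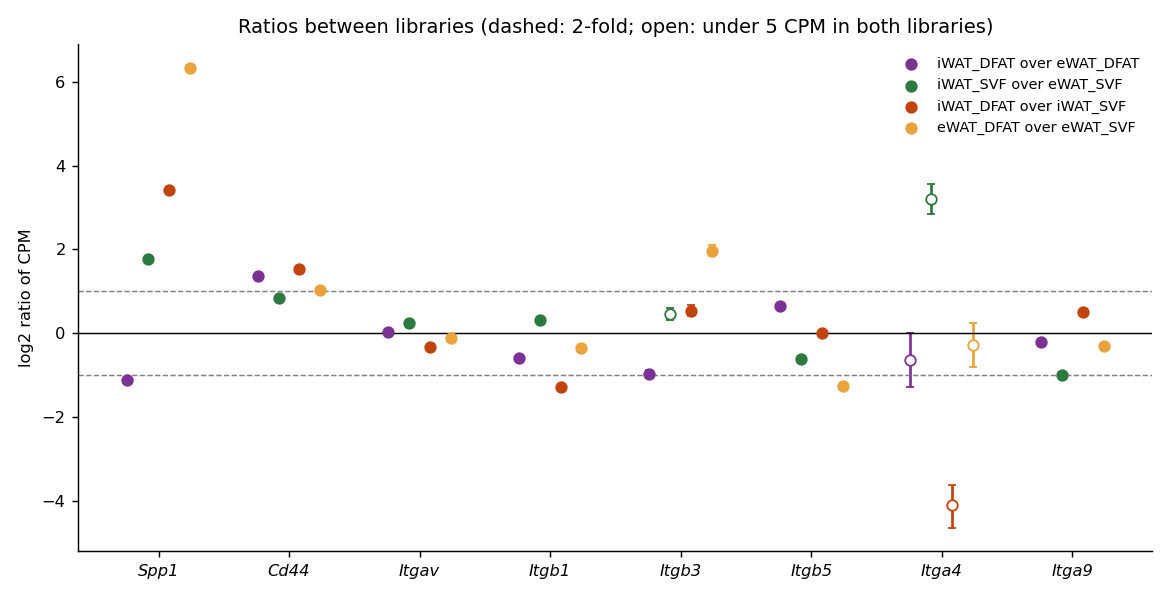
Log2 ratios of CPM between libraries for the 8 genes in 4 comparisons, with exact 95% conditional binomial intervals and dashed lines at 2-fold. Open points are genes under 5 CPM in both libraries. Spp1 lay above the upper dashed line in both comparisons of DFAT with SVF cells, and Cd44 lay above it in iWAT and on it in eWAT.

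Pairs of integrin chains were counted as cells with a UMI of both after thinning. *Itgav* and *Itgb1* occurred together in 35.5%, 40.2%, 49.8% and 44.7% of cells, beside 35.3%, 38.6%, 49.0% and 44.0% from multiplying the single shares. *Itgav* and *Itgb5* did so in 16.0%, 10.6%, 18.4% and 21.5%, beside products of 15.3%, 9.99%, 17.5% and 20.9%. *Itgav* and *Itgb3* did so in 1.31%, 3.00%, 1.25% and 1.07%. *Itga9* and *Itgb1* occurred together in 10.9%, 11.9%, 9.15% and 15.5% of cells, beside products of 10.4%, 11.3%, 8.91% and 14.7%. For these pairs other than *Itgav* with *Itgb3*, the order of the libraries was the same in the shares and in the products. The product lay below the 95% interval of the share for *Itgav* and *Itgb1* in eWAT_DFAT (39.0% to 41.4%). It also did for *Itgav* and *Itgb5* in iWAT_SVF (17.6% to 19.3%). Both products stayed below the interval without the cells of other types. In every library the share of each of these pairs was above its product. The interval covers the share alone and treats cells as independent, while the product comes from the same cells. It therefore does not measure the spread of the excess, and a product inside the interval does not show that the excess is absent. The *Itgav* and *Itgb3* pair was most frequent in eWAT_DFAT, the library with most *Spp1*, and the *Itgav* and *Itgb5* pair least frequent there. Free RNA held *Itgb3* at 7.87, 12.0, 6.16 and 3.24 CPM, close to its level in the cells, and its part in these shares was not tested. The products of the single shares for the *Itgav* and *Itgb3* pair were 1.17%, 2.35%, 1.22% and 0.895%, of which that of eWAT_DFAT lay below the 95% interval of the share there, 2.60% to 3.45%. Of the 194 eWAT_DFAT cells with both genes, 56 were among the 158 endothelial-marker cells. Without the cells of other types, adipocyte-marker cells among them, the shares of the pair were 1.29%, 2.06%, 1.22% and 0.691%. The interval in eWAT_DFAT, 1.71% to 2.46%, then held the product of 1.83%.

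Within a library, cells were binned by their *Spp1* UMIs per 10000, and receptor levels were summed per bin. *Cd44* was lower at high *Spp1* in iWAT_DFAT, at 782 CPM (766 to 799) in the 630 cells without *Spp1* and 504 (494 to 515) in the 644 cells above 50. In eWAT_DFAT the order was not the same in every bin: *Cd44* was 239 CPM (223 to 257) in the 228 cells without *Spp1*, 322 (311 to 332) in the bin above 0 to 1 and 229 (225 to 233) above 50. The intervals of the first and the last of these bins overlapped. In iWAT_SVF *Cd44* went the other way, at 222 CPM (219 to 225) in cells without *Spp1* and 300.2 (292 to 309) in the 588 cells above 5 to 25. The same bins of eWAT_SVF held 129 (128 to 131) and 163 CPM (147 to 179), the latter in 92 cells, but the share of cells with *Spp1* in that library was no higher than in its endothelial-marker cells. Depth moved with the bins, from a median of 16896 UMIs per cell at 0 to 26476 above 50 in iWAT_DFAT, and from 12506.5 to 29590.5 in eWAT_DFAT.

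*Itgb1* and *Itgav* were lower at high *Spp1* in eWAT_DFAT. *Itgb1* was at 640 CPM in cells without *Spp1*, 709 in the bin above 0 to 1 and 441 in the bin above 50, and *Itgav* at 228, 179 and 113 CPM. In iWAT_DFAT the same bins differed little, at 356 and 335 CPM for *Itgb1*. Among cells with *Spp1*, *Itgb3* was higher at high *Spp1* in both DFAT libraries, at 4.65 and 14.7 CPM in these bins of iWAT_DFAT and 10.1 and 18.0 CPM in those of eWAT_DFAT, where cells without *Spp1* had 20.3 CPM. *Itga9* was lower in the last bin than in the bin above 0 to 1 in both, at 18.9 beside 33.6 CPM in iWAT_DFAT and 23.8 beside 38.6 CPM in eWAT_DFAT, whose cells without *Spp1* had 30.9 CPM. Of the 228 eWAT_DFAT cells without *Spp1*, 41 carried 3 or more endothelial markers, and their part in the values of that bin was not tested.

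**Figure D4:**
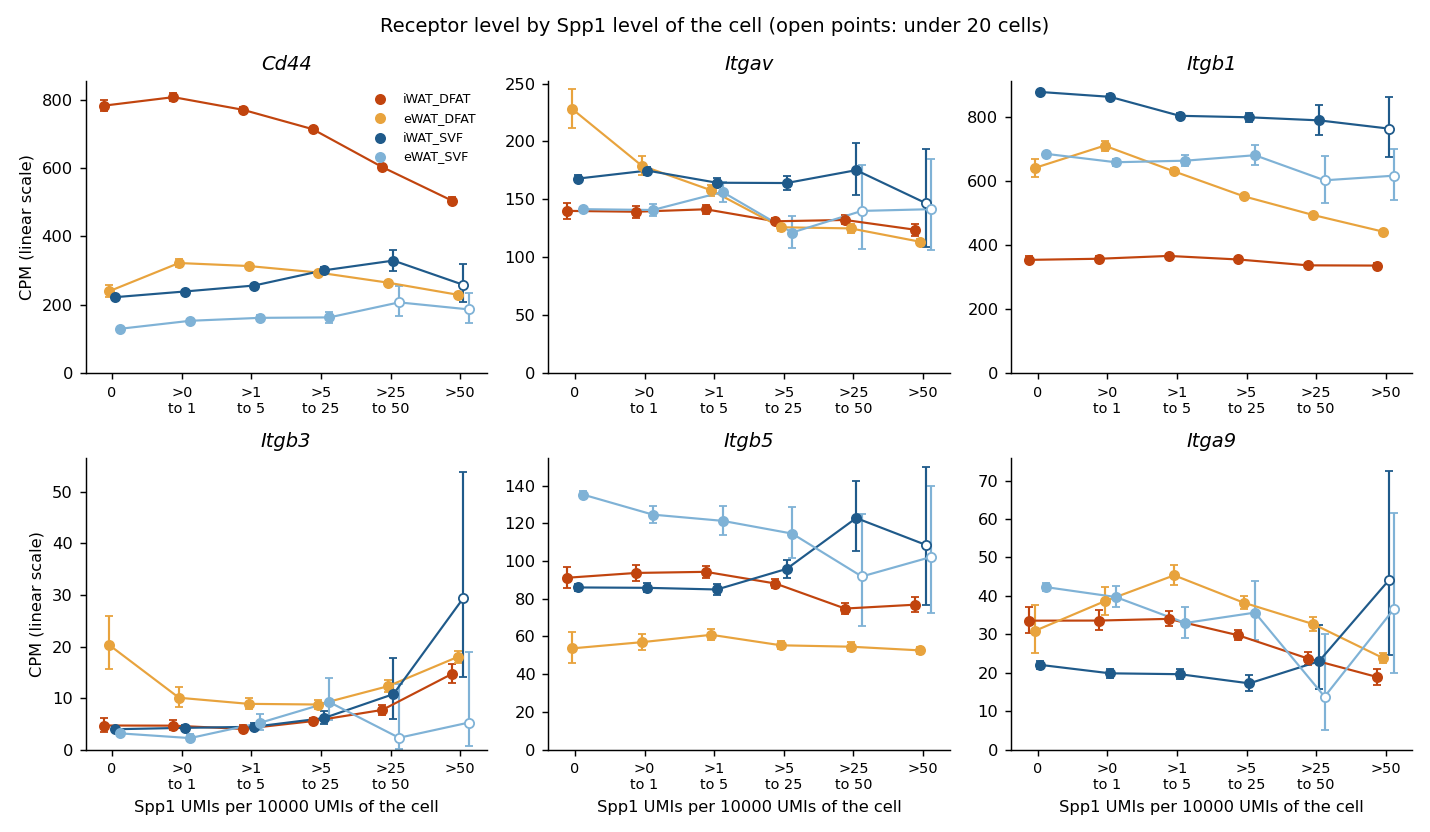
Level of 6 receptor genes in CPM (linear axis from 0) by the Spp1 UMIs per 10000 UMIs of the cell, for the 4 libraries. Error bars are exact 95% Poisson intervals and open points hold under 20 cells. In iWAT_DFAT Cd44 stood at 782 CPM in the first bin and 504 in the last, while Itgb3 stood at 4.68 and 14.7.

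Across single cells the same relations had small coefficients. Pearson's r of log levels with *Spp1* was -0.12, -0.057, 0.11 and 0.067 for *Cd44*, and 0.12, 0.068, 0.064 and 0.033 for *Itgb3*, over 7629, 6464, 7424 and 6745 cells. For *Itgb1* it was -0.016, -0.15, -0.037 and -0.014, and for *Itgav* -0.018, -0.15, 0.011 and -0.026. After thinning to equal depth the values were -0.10, -0.072, 0.079 and 0.050 for *Cd44*, and 0.076, 0.016, 0.043 and 0.017 for *Itgb3*. They were -0.035, -0.11, -0.025 and 0.0018 for *Itgb1*, and -0.013, -0.10, -0.0012 and -0.011 for *Itgav*, so the sign of *Itgb1* in eWAT_SVF and of *Itgav* in iWAT_SVF turned. At full depth and without the cells of other types the values in eWAT_DFAT were -0.12 for *Cd44*, 0.18 for *Itgb3*, -0.13 for *Itgb1* and -0.069 for *Itgav*, and that for *Cd44* in eWAT_SVF was 0.030. *Spp1* also went with the depth of the cell in the DFAT libraries, with r of 0.24 and 0.26 with the UMIs per cell against 0.058 and -0.028 in the SVF libraries. The cells of a library share its free RNA and depth, so these values are descriptions. The largest value among the receptor genes was 0.23 for *Itga4* in eWAT_SVF, and it was 0.052 without the cells of other types. For comparison, full-depth r with *Spp1* was taken over 5119 genes at 20 CPM or more in every library. Its 5th and 95th percentiles were -0.10 and 0.13 in iWAT_DFAT, -0.085 and 0.14 in eWAT_DFAT, -0.035 and 0.056 in iWAT_SVF, and -0.053 and 0.043 in eWAT_SVF.

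The genes that followed *Spp1* most closely across cells were ranked by their weakest correlation over the 4 libraries, among 5119 genes at 20 CPM or more in all of them. *Plin2*, which coats lipid droplets, came first, with r of 0.285, 0.346, 0.108 and 0.139. It was followed by *Lgals3* (galectin-3), *Esd* (an esterase), *Ftl1* (ferritin light chain, r of 0.36, 0.43, 0.093 and 0.088) and *Slc25a5* (a mitochondrial adenine nucleotide carrier). At the other end stood *Vegfd*, a lymphatic growth factor, with r of -0.25, -0.086, -0.11 and -0.12, then *Aldh1a1*, *S100a11*, *Nfib* and *Cavin3*. *Plin2*, *Lgals3* and *Ftl1*, and *Vegfd*, *Nfib* and *Cavin3*, remained among the 5 after thinning.

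*Spp1* was then compared between cells by a histone gene of S phase, *Hist1h1b*, and an activator of the anaphase-promoting complex in mitosis, *Cdc20*. Both genes were read after thinning, and cells with 2 or more UMIs of a gene were set against cells with 0 UMIs of both. *Hist1h1b* cells numbered 951, 999, 784 and 724, *Cdc20* cells 407, 367, 628 and 323, and cells with neither gene 5101, 3867, 4813 and 4657. In iWAT_DFAT *Spp1* was 1813 CPM in cells with neither gene, 2177 in *Hist1h1b* cells and 2238 in *Cdc20* cells. In eWAT_DFAT it was 4562, 3878 and 3794 CPM, the reverse order. The median cell held 8.09, 12.3 and 10.8 *Spp1* UMIs per 10000 in iWAT_DFAT and 22.3, 22.0 and 19.5 in eWAT_DFAT.

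The log2 ratio over cells with neither gene was 0.26 (0.25 to 0.28) and 0.30 (0.28 to 0.32) in iWAT_DFAT and -0.23 (-0.24 to -0.23) and -0.27 (-0.28 to -0.25) in eWAT_DFAT, for *Hist1h1b* and *Cdc20* cells. These intervals leave out the spread over cells, where the variance of *Spp1* was 17.2, 32.9, 9.20 and 27.5 times the mean. They are therefore too narrow for a comparison of groups of cells. In iWAT_SVF *Spp1* was 179, 167 and 173 CPM in cells with neither gene, *Hist1h1b* cells and *Cdc20* cells. In eWAT_SVF it was 51.8, 74.6 and 26.04 CPM, and the *Hist1h1b* ratio of 0.53 became -0.078 without the cells of other types. The *Cdc20* ratio there, -0.99, was -0.32 at a limit of 1 UMI and -0.013 with summed cycle lists, and that in iWAT_SVF, -0.056, turned to 0.053 and 0.088. The ratio of summed levels for *Hist1h1b* cells was thus above 0 in iWAT_DFAT and eWAT_SVF and below 0 in eWAT_DFAT and iWAT_SVF. Pearson's r of the log levels of *Spp1* and *Hist1h1b* over single cells was above 0 in every library but small, at 0.090, 0.034, 0.016 and 0.042, and at 0.074, 0.020, 0.015 and 0.021 after thinning. For *Cdc20* it was 0.055, 0.039, 0.039 and 0.013, and 0.042, -0.0022, 0.027 and -0.0052 after thinning. In eWAT_DFAT without the cells of other types the full-depth values were 0.00014 for *Hist1h1b* and -0.0075 for *Cdc20*. Over 5119 genes at 20 CPM or more in every library, the median full-depth r with *Spp1* was 0.023, 0.018, 0.010 and -0.0024. Of them 728, 1929, 2049 and 263 had a higher r than *Hist1h1b*, and 1483, 1725, 613 and 1401 a higher r than *Cdc20*. *Hist1h1b* cells were also deeper, with a median of 29016 to 31844 UMIs beside 20431 to 26727 in cells with neither gene.

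Among the receptors, *Itga9* and *Itgb5* were lower in *Hist1h1b* cells and in *Cdc20* cells of every library. The log2 ratios lay between -0.71 and -0.22 for *Itga9* and between -0.58 and -0.16 for *Itgb5*. The intervals, for counting error only, were below 0 in all 8 cases of each. The share of all genes that were lower in these cells is not given here. These counts therefore cannot tell a trait of the receptors from a shift shared by many genes. In *Cdc20* cells *Cd44*, *Itgav* and *Itgb1* were below 0 in all 4 libraries as well. In *Cdc20* cells *Cd44* was lower in all 4 libraries, where its log2 ratio lay from -0.57 to -0.080. In *Hist1h1b* cells it was lower in iWAT_DFAT only, at -0.30, and higher elsewhere, at 0.12, 0.20 and 0.18. The *Itgb1* ratios in *Hist1h1b* cells lay between -0.049 and 0.030, and in *Cdc20* cells they were -0.15, -0.057, -0.20 and -0.27. For *Itgav* they were -0.23, -0.15, -0.059 and 0.019 in *Hist1h1b* cells and -0.30, -0.29, -0.11 and -0.090 in *Cdc20* cells.

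**Figure D5:**
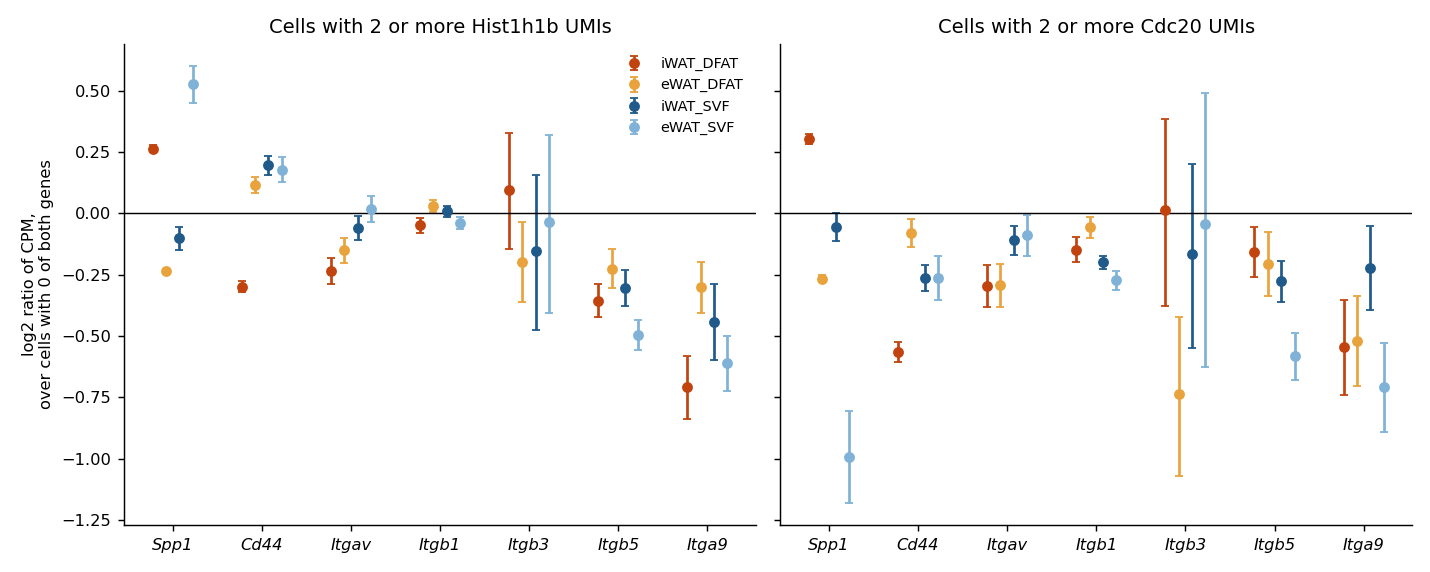
Log2 ratio of CPM in cells with 2 or more Hist1h1b UMIs (left) or Cdc20 UMIs (right) over cells with 0 UMIs of both, per library, with exact 95% intervals for counting error. Spp1 points fall on both sides of 0, while all Itga9 and Itgb5 points lie below 0.

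The wider pathway was read from lists of related genes, over genes at 5 CPM or more. The first list held secreted phosphoproteins of the same family, enzymes linked to their cleavage or phosphorylation, and *Thbd* (thrombomodulin, a receptor for thrombin). With *Spp1* itself left out, 4 of 6 were over 2-fold higher in DFAT than in SVF cells of iWAT and 2 of 5 in eWAT, and 0 were lower. Of all genes 9.91% were higher and 5.18% lower in iWAT, and 6.44% and 6.67% in eWAT, and these shares are the background for the lists that follow. The median log2 ratio of the list was 1.66 in iWAT and 0.20 in eWAT, beside 0.088 and 0.070 for all genes. *Mmp3*, a stromelysin that cleaves osteopontin, was at 426, 179, 21.6 and 19.7 CPM. *Thbd* was among those higher in both depots, at 40.3, 51.4, 15.6 and 23.5 CPM. *Mmp9*, a gelatinase, was at 32.6, 4.92, 0.361 and 0.035 CPM. The family members *Ibsp*, *Dmp1*, *Dspp* and *Mepe* had at most 5 UMIs in any library.

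Of the genes of CD44 and hyaluronan biology, 5 of 9 were over 2-fold higher in iWAT DFAT than SVF cells and 1 of 8, beside 6.44% of all genes, in eWAT, with 0 lower in either and medians of 1.05 and 0.37. *Tnfaip6*, which modifies hyaluronan in inflammation, was at 222 CPM in iWAT_DFAT and at 26.3, 17.8 and 20.7 CPM elsewhere. *Has1*, a hyaluronan synthase, was at 14.9 CPM in iWAT_DFAT and at 1.80, 2.80 and 1.07 CPM elsewhere. *Ezr* (ezrin, which links CD44 to actin) was at 17.8, 20.8, 8.59 and 36.9 CPM.

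Of the other ligands of the same receptors, 6 of 13 were over 2-fold lower and 3 higher in iWAT DFAT than SVF cells, and 3 of 12 lower and 1 higher in eWAT, with medians of -0.88 and -0.39. *Postn* (periostin) was at 45.6, 52.5, 405 and 244 CPM, and *Ccn3*, a matricellular protein, at 1.57, 0.307, 53.8 and 5.64 CPM. *Edil3* followed the depot more than the culture, at 5.18, 0.409, 15.8 and 0.0607 CPM. Of the other integrin chains, 3 of 7 were over 2-fold lower and 2 higher in iWAT DFAT than SVF cells, and 4 of 6 lower and 1 higher in eWAT, with medians of -0.37 and -1.74. *Itga11*, a collagen receptor chain, was at 2.71, 3.86, 19.9 and 60.9 CPM, *Itga8* at 0.670, 3.64, 9.60 and 8.13 CPM, and *Itgb7* at 7.89 CPM in iWAT_DFAT and under 1 CPM elsewhere.

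Of the genes for adhesion signalling below integrins, 0 of 12 passed 2-fold between iWAT DFAT and SVF cells and 1 of 12, *Tln2* (talin 2), was lower in eWAT DFAT cells, at 52.1 beside 106 CPM. *Vcl* (vinculin) was at 389, 234, 300.1 and 456 CPM and *Zyx* (zyxin) at 247, 432, 478 and 687 CPM. Of the transcription factors linked to *Spp1*, 4 of 10 were over 2-fold higher in DFAT cells of iWAT and 0 lower, and 3 of 11 were higher and 1 lower in eWAT, with medians of 0.91 and 0.39. *Runx2*, whose product binds the RUNX core, was at 64.0, 69.4, 49.7 and 30.9 CPM. *Fosl1*, an AP-1 subunit, was at 112, 101, 18.4 and 17.1 CPM. *Fos* was at 493, 58.4, 114 and 204 CPM and *Jun* at 275, 91.1, 68.3 and 73.2 CPM. The part of any of these factors in the *Spp1* level was not tested. Of the 10 S phase and 10 G2/M genes, at most 1 passed 2-fold in any comparison.

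The same lists were also read between depots, where 8.29% of all genes were over 2-fold higher and 3.95% lower in iWAT than eWAT DFAT cells, and 2.94% and 3.94% in SVF cells. Of the first list without *Spp1*, 3 of 6 were higher in iWAT DFAT cells and 0 of 5 passed 2-fold in SVF cells. Of the CD44 and hyaluronan genes, 4 of 9 were higher in iWAT DFAT cells and 0 lower, and 1 of 8 higher and 1 lower in iWAT SVF cells. Of the other ligands, 3 of 12 were higher and 2 lower in iWAT DFAT cells, and 2 of 13 higher in iWAT SVF cells. Of the other integrin chains, 2 of 5 were higher and 1 lower in iWAT DFAT cells, and 2 of 6 lower in iWAT SVF cells. Of the transcription factors, 3 of 11 were higher and 1 lower in iWAT DFAT cells, and 0 of 10 passed 2-fold in SVF cells. Of the adhesion signalling genes *Tln2* was higher in iWAT than eWAT DFAT cells, at 108 beside 52.1 CPM, and 0 of 12 passed 2-fold in SVF cells.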

How the data were processed

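The deposited values are whole-number UMI counts per gene and barcode, made by the authors with Cell Ranger against mm10 before any filter, with empty droplets included. The submitters' processing notes name version 7.0.0 and the Methods include introns, but the file headers name 7.1.0 for 3 libraries and version 4 for iWAT_SVF. The median log2 ratio rose with the span of the gene in all 4 comparisons, lying between -0.069 and -0.0079 under 10 kb and between 0.13 and 0.31 over 100 kb, also where both headers name 7.1.0, and *Itgb5* and *Itga9* span over 100 kb. CellBender and DoubletFinder of the Methods were not run here. The Methods' limit of 500 UMIs left 7796, 6988, 7843 and 7353 barcodes. Doublets were kept. The threshold of Scrublet marked at most 0.0445% of cells, which does not show that doublets were absent. An alternative for the ratios left out the 466, 334, 441 and 364 cells with the highest scores. The part of doublets in the marker classes and integrin pairs was not tested.

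Total depth was 211396227 to 242282812 UMIs per library. Counts were summed over cells and scaled to 1000000, with exact 95% Poisson, Clopper-Pearson and conditional binomial intervals, and a gene counted as past 2-fold only at 5 CPM or more in the higher library. Thinning was at random to 5000 UMIs with a fixed seed. Log levels for correlations are of counts per 10000 UMIs plus 1. The interval, thinning and correlation steps were checked for correct computation. The interval check used Poisson counts drawn at the libraries' means, so it does not cover the spread over cells. Genes named from lists are the 3 with the largest ratio in each list, and those named for likeness the 5 at each end. The *Tln2* value follows the same rule, while *Thbd*, *Runx2*, *Ibsp*, *Dmp1*, *Dspp* and *Mepe* were named after their values were seen. *Spp1* was left out of the family list, and other cell types out of the integrin pairs, after the data were seen. The 8 genes, lists and tests were chosen with earlier results of these data known. Positions are from GENCODE M21 on GRCm38, and the upstream sequence is from RefSeq. Scripts ran under Python 3.11.15 with scanpy 1.11.5, scipy 1.17.1, numpy 2.4.6, pandas 2.3.3 and matplotlib 3.10.9. Comparisons were between depots within a culture and between cultures within a depot, and groups follow the sample titles.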

Additional observations from a re-analysis of the deposited data

Results flagged for a closer look

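Several genes differed between depots in opposite directions in the 2 cultures, or between cultures in opposite directions in the 2 depots, and these differences were not tested, since there was 1 library per condition. The log2 ratio of iWAT over eWAT for *Spp1* was -1.12 in DFAT cells and 1.78 in SVF cells, where 36 cells held 48.5% of the eWAT_SVF UMIs of the gene. For *Itgb1* it was -0.59 in DFAT cells and 0.32 in SVF cells, and for *Itgb3* -0.98 and 0.45. *Itgb5* went the other way, at 0.65 in DFAT cells and -0.62 in SVF cells. The SVF ratio of *Itgb3* rests on 4.39 and 3.21 CPM, both under the limit of 5 CPM. Endothelial-marker cells held 21.9% of the *Itgb3* UMIs of eWAT_SVF. The log2 ratio of DFAT over SVF cells for *Itga9* was 0.50 in iWAT and -0.30 in eWAT.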

How the results depend on the processing

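The 8 alternatives for ratios between libraries left the direction of every *Spp1* ratio as it was. With the cells of other types removed, the *Spp1* ratios (log2) were -1.11 for iWAT over eWAT DFAT cells, 2.06 for iWAT over eWAT SVF cells, 3.46 for DFAT over SVF cells of iWAT and 6.63 for DFAT over SVF cells of eWAT. With all cells weighted equally they were -1.17, 1.55, 3.27 and 5.996, and centred on the median of all genes -1.21, 1.73, 3.34 and 6.26. Subtraction of free RNA gave -1.16 between the DFAT depots and 3.38 in iWAT. Removal of the highest doublet scores gave 1.73 between the SVF depots and 3.44 in iWAT, and no upper gene limit gave 1.81 between the SVF depots and 6.38 in eWAT. For *Hist1h1b* cells the *Spp1* ratio at a limit of 1 UMI was 0.22 in iWAT_DFAT, -0.17 in eWAT_DFAT and 0.27 in eWAT_SVF, and with summed cycle lists 0.67, -0.27 and 0.83, and -0.040 in iWAT_SVF. For *Cdc20* cells the limit of 1 UMI gave 0.24, -0.24, 0.053 and -0.32 in the 4 libraries and summed lists gave 0.37, -0.35, 0.088 and -0.013, which reversed iWAT_SVF. Without other cell types the ratios in eWAT_DFAT were -0.29 for *Hist1h1b* cells and -0.36 for *Cdc20* cells, and the *Hist1h1b* ratio in eWAT_SVF reversed to -0.078. Reversed values of receptors were those of *Itgav* between the DFAT depots (-0.036 with cells weighted equally, -0.067 centred), *Itgb5* in iWAT (0.0065 without other cell types, 0.0047 with free RNA subtracted, 0.038 with cells weighted equally) and *Itga4* in eWAT (1.15 without other cell types), all of them near 0 or under 5 CPM in the main values. The coefficient of variation of *Spp1* was 1.35, 1.24, 3.03 and 10.1 after thinning to 10000 UMIs, and 1.39, 1.23, 3.03 and 8.55 without other cell types, so the order of the libraries stayed. The causes of these moves were not tested. No paired analysis by depot was made, since each condition has 1 library. Leaving out a library would have left its condition without any.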
